A study of Mus musculus with 6 samples.

Results

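The DNA replication genes described here are Mcm2, Mcm3, Mcm4, Mcm5, Mcm6, Mcm7, Pcna, Rrm1, Rrm2 and Tyms, 10 of the 16557 genes listed in single-cell RNA sequencing of 6 mouse rhabdoid tumors. The genes were chosen by name for their place in DNA replication, with earlier results of these data known, and all 10 were listed in all 6 tumors. Their unique molecular identifiers (UMIs, each marking 1 captured transcript) were counted in tumor cells, myeloid cells, hematopoietic progenitors and T cells of each tumor. In 22163 cells, 26698 UMIs of the 10 genes were found, and 9111 cells held at least 1 of them.

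The tumors arose in mice with both floxed copies of Smarcb1, which encodes a subunit of the chromatin remodeler SWI/SNF, and a tamoxifen-inducible Cre (CreERT2). In both strains used, tamoxifen was given once to the pregnant female at 6.5 days post-coitum. In the Rosa26-cre strain, the ubiquitous Rosa26 promoter drives the Cre. The 3 MYC spinal tumors, here MYC spinal 1, 2 and 3 (labelled Rosini1172, Rosini1177 and Rosini1232, aged 19, 26 and 17 weeks), and 1 extracranial rhabdoid tumor (eRT 1, labelled Rosini1148, at a gland) came from this strain. Its label gives eRT 1 an age of 17 weeks, and the study's sample summary another age. The others, eRT 2 (labelled Soxertini568_maxilar, jaw, 29 weeks) and eRT 3 (Soxertini593, shoulder, 22 weeks), came from the Sox2-cre strain, in which the Sox2 promoter drives the Cre, so that subtype and strain were partly confounded. No tumor-free animal is among the samples, and each tumor is 1 animal and 1 library. Cells were sorted as negative for the dye 7-AAD after lysis of red cells.

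Before each round of DNA synthesis, the 6 proteins Mcm2 to Mcm7 are loaded as a ring onto replication origins in G1 and, once activated, unwind DNA ahead of the fork. Pcna is the sliding clamp that holds polymerases on DNA, Rrm1 and Rrm2 are the large and small subunits of ribonucleotide reductase, which makes deoxynucleotides, and Tyms (thymidylate synthase) makes the thymidine nucleotide. Most of these genes are targets of E2F transcription factors and are transcribed around the start of S phase, while Rrm2 protein is short-lived outside S phase. In a tumor, the RNAs therefore mark dividing cells of any type, malignant or immune.

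Stretches of promoters are shown here because an E2F-type motif was found in them. The letters TTTCCCGC, TTTCGCGC, TTTGCCGC and TTTGGCGC were searched on both strands in the RefSeq windows of GRCm38.p6, from 250 bases before to 50 bases after each start, and 744 of 32851 windows (2.265%) held at least 1. Of the 9 genes with a window (all but Mcm4), 4 (Mcm3, Mcm5, Mcm6 and Mcm7) held a match, and of the windows of the 2 Mcm7 starts 1 held both of its matches. Sequences run 5′ to 3′ on the gene's strand with the motif in capitals. Where motifs on both strands overlap, 1 run of capitals covers both.
Mcm3, chr1:20820275-20820304, minus strand: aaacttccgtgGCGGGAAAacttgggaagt
Mcm3, chr1:20820263-20820285, minus strand: acttgggaagtTTTGGCGCcaag
Mcm5, chr8:75109347-75109376, plus strand: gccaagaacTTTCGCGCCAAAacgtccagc
Mcm6, chr1:128359795-128359824, minus strand: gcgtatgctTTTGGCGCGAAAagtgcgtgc
Mcm6, chr1:128359734-128359763, minus strand: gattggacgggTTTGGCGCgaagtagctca
Mcm7, chr5:138172030-138172059, minus strand: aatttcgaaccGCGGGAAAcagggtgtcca
Mcm7, chr5:138171849-138171878, minus strand: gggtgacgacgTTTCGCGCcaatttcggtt
On GRCm38, in the GENCODE annotation, Mcm2 lies at chr6:88883474-88898780, Mcm3 at chr1:20802968-20820312, Mcm4 at chr16:15623897-15637400, Mcm5 at chr8:75109569-75128439, Mcm6 at chr1:128331590-128359664 and Mcm7 at chr5:138164583-138172422. Rrm1 lies at chr7:102441695-102469771, Rrm2 at chr12:24708241-24714146 and Tyms at chr5:30058202-30073617. A match is a description of these letters and not a bound site, and no binding was measured in these samples.

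Libraries held 3841706 to 26184224 UMIs, with a median of 916 to 5211 UMIs per cell. Cells were clustered within each subtype with the 10 genes and other cell cycle genes left out, clusters were named from markers, and tumor cells were the clusters nearly without Smarcb1 that carried no immune name. The 4 kinds held 17395 cells (78.49%) and 67.63% of the 10 genes' UMIs. Smarcb1, the deleted gene, was at 0, 0 and 3.13 counts per 1000000 UMIs (CPM) in tumor cells for MYC spinal 1, 2 and 3 and 6.41, 3.19 and 1.98 CPM in the eRT (1, 2 and 3), but 19.4 to 59.9 CPM in myeloid cells, a level that the choice of clusters had used. The levels of 0 allow up to 5.48 CPM in MYC spinal 1 and 63.9 CPM in MYC spinal 2 at 3 counts. Macrophage markers summed to 192 to 2072 CPM in tumor cells, against 3191 to 76780 CPM in myeloid cells, and their part in the results below was not tested. The cell names are running numbers, so barcodes shared between libraries could not be counted.

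Some sums go against their labels or are small. The 28 cells of MYC spinal 1 placed in a progenitor cluster held 1 of the 8 progenitor markers (9.14 CPM summed), against 12630 and 7811 CPM in the progenitors of MYC spinal 2 and 3, but T cell markers at 3209 CPM and NK cell markers at 1481 CPM. They are called the unclear cells of MYC spinal 1 here, and each test against progenitors is given with and without them. MYC spinal 2 had only 18 tumor cells with 9 UMIs of the 10 genes, in which late neutrophil markers reached 12740 CPM. Of the 68 tumor cells of eRT 1, a cluster with epithelial markers supplied 35. No eRT held progenitors, so the progenitor levels come from the 3 MYC spinal tumors only. All kinds of all tumors entered 1 fit, so the other sums, those of eRT included, also bear on the tests against progenitors.

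Summed over the 10 genes, tumor cells held 471, 192 and 349 CPM (MYC spinal 1, 2 and 3) and 276, 145 and 247 CPM (eRT 1, 2 and 3). In the same order, myeloid cells held 592, 540, 247, 354, 170 and 295 CPM. T cells held 427, 404, 1153, 1002, 265 and 771 CPM, and the progenitor sums of MYC spinal 1, 2 and 3 were 1518, 980 and 800 CPM. The progenitor sums stood above both other sums from the same tumor for tumor cells and myeloid cells in all 3 tumors. Tumor cells stood below myeloid cells in 5 of 6 tumors, the exception being MYC spinal 3, and the 2 ranges overlapped. The myeloid sums leave out clusters that got no name. Among those, 1107 cells led by Lpl and Fabp5 held 671 CPM in MYC spinal 3, above the tumor and myeloid sums there. In eRT 1, 421 cells led by Akr1b8 and Arg1 held 962 CPM. The part of these cells in the order of tumor and myeloid cells was not tested. T cells stood above myeloid cells in MYC spinal 3 and eRT 1, 2 and 3 and below them in MYC spinal 1 and 2. A level summed over cells does not tell fewer cells with the RNA from less RNA in each.

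**Figure D1:**
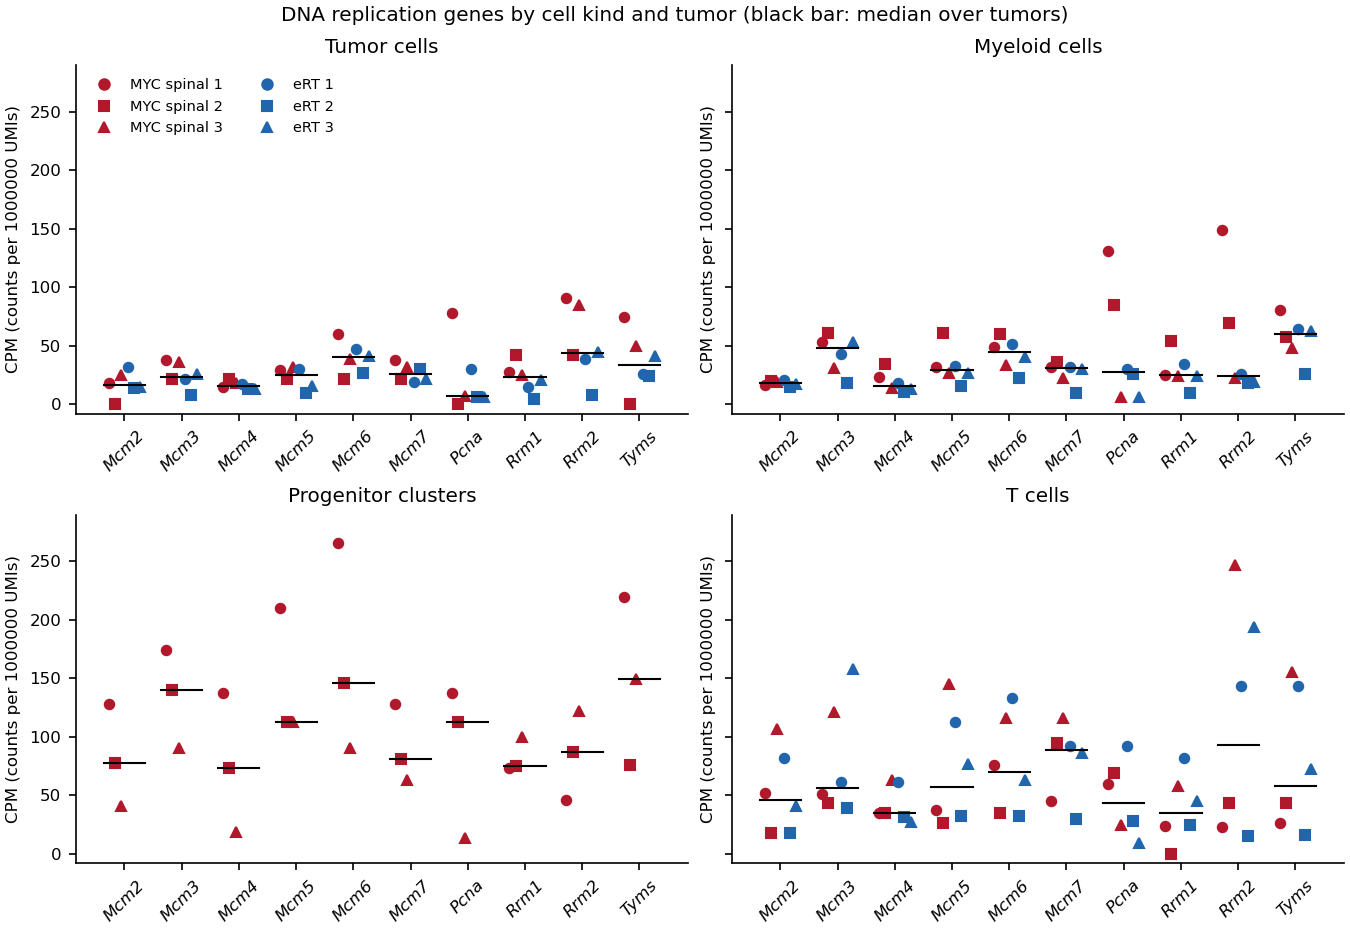
Level of each of the 10 DNA replication genes, in counts per 1000000 UMIs summed over the cells (CPM, linear axis), in tumor cells, myeloid cells, progenitor clusters (with the unclear cells of MYC spinal 1) and T cells. Each point is 1 tumor and each black bar the median over tumors, and the Mcm6 points of the progenitor sums, at 265, 146 and 90.4 CPM, stand above the 27.1 to 60.2 CPM of tumor cells other than those of MYC spinal 2 (21.3 CPM).

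Among the helicase subunits, only Mcm3 was called lower in tumor cells than in myeloid cells. The other subunits also had negative log2 fold changes, and Mcm5 (-0.80) was lower in the same 5 tumors as Mcm3. In tumor cells, Mcm3 was at 38.3, 21.3 and 36.6 CPM for MYC spinal 1, 2 and 3 and 21.4, 7.97 and 25.7 CPM for eRT 1, 2 and 3. In myeloid cells it was at 52.9, 61.3, 31.1, 43.2, 17.8 and 53.3 CPM in the same order. Mcm3 was lower in tumor cells in 5 of 6 tumors and higher in MYC spinal 3, and the levels of the 2 kinds overlapped across tumors. The log2 fold change was -1.03 ± 0.32 (SE; adjusted p = 0.0165, quasi-likelihood test of edgeR, Benjamini-Hochberg adjusted over all genes, tumor as a block). Of all genes tested in that comparison, 19.5% were called lower, so 1 of 10 is no larger a share than the background. The call was lost when eRT 1 or eRT 3 was left out.

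The other 9 genes had log2 fold changes from -0.13 (Mcm7) to -0.91 (Pcna) between tumor and myeloid cells and did not pass the test. Their median with Mcm3 was -0.54, against -0.03 over all genes tested. Myeloid cells are mixed, and the myeloid sums change with their makeup. Macrophages and monocytes held 618, 671, 527, 609, 240 and 296 CPM of the 10 genes in MYC spinal 1, 2 and 3 and eRT 1, 2 and 3, while the osteoclast-like cells of MYC spinal 3 and eRT 1 held 89.5 and 133 CPM. Late neutrophils, which no longer divide, held 152 and 172 CPM in MYC spinal 2 and 3. In eRT 2, late neutrophil clusters of 207 and 135 cells held 45.8 and 47.8 CPM. Against macrophages and monocytes alone, a comparison added after these levels were seen, 5 genes were lower in tumor cells, beside 20.1% of all genes in that fit. They were Mcm3 (-1.48 on the log2 scale, edgeR adjusted p = 0.000446), Mcm5 (-1.20), Pcna (-1.16), Rrm1 (-1.13) and Tyms (-1.14).

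In progenitors, Mcm2, Mcm5 and Mcm6 rose against myeloid cells, and 3 of 10 stand beside 1.04% of all genes called higher. Mcm6 stood at 265, 146 and 90.4 CPM in the progenitor sums of the 3 MYC spinal tumors, in the order 1, 2 and 3, against 48.7, 60.4 and 33.6 CPM in their myeloid cells. Mcm2 stood at 128, 77.7 and 40.7 CPM against 16.7, 20.2 and 18.8 CPM, and Mcm5 at 210, 112 and 113 CPM against 32.0, 61.3 and 26.8 CPM. In all 3 genes, every progenitor value was above every myeloid value of these tumors. The highest progenitor value of each gene was that of the unclear cells of MYC spinal 1. How many of all genes were parted in this way was not counted, so this is not read as a result about these genes. The log2 fold changes were 1.44 ± 0.37 for Mcm6 (SE; edgeR adjusted p = 0.0358), 1.73 ± 0.46 for Mcm2 (edgeR adjusted p = 0.0410) and 1.56 ± 0.43 for Mcm5 (edgeR adjusted p = 0.0476).

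Those calls were lost when MYC spinal 1 or MYC spinal 2 was left out, and when eRT 1 or eRT 3, which held no progenitors, was. Of the 6 fits with 1 tumor left out, Mcm2 was called in 2, Mcm6 in 1 and Mcm5 in 0. All 3 calls were also lost without the unclear cells of MYC spinal 1, which left progenitor sums of MYC spinal 2 and 3 only. The part of these cells cannot be told apart from that of having fewer sums. Without the unclear cells no gene of the 10 passed the test, and 0.126% of all genes were called higher. The log2 fold changes were then 1.21 ± 0.43 for Mcm6, 1.45 ± 0.53 for Mcm2 and 1.14 ± 0.48 for Mcm5. The smallest adjusted p of the 10 genes in edgeR's test was 0.185. Pcna and Rrm2 had the smallest differences between progenitors and myeloid cells, at 0.33 ± 0.49 and 0.14 ± 0.74 on the log2 scale, and at 0.49 ± 0.61 and 0.55 ± 0.84 without those cells. Rrm2 was lower in the unclear cells of MYC spinal 1 (45.7 CPM) than in its myeloid cells (149 CPM) and higher in progenitors of MYC spinal 2 and 3.

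Tumor cells held less of 6 genes than progenitors, Mcm2, Mcm3, Mcm4, Mcm5, Mcm6 and Rrm1, beside 6.42% of all genes called lower. Mcm3 stood at 174, 140 and 90.4 CPM in the progenitor sums of MYC spinal 1, 2 and 3 against 38.3, 21.3 and 36.6 CPM in tumor cells, without overlap. How many of all genes were without overlap there was not counted. The log2 fold change of Mcm3 was -2.17 ± 0.40 (SE; edgeR adjusted p = 0.00170). Mcm5 stood at 29.2, 21.3 and 32.1 CPM in tumor cells, far below its progenitor levels, and its log2 fold change was -2.35 ± 0.46 (SE; edgeR adjusted p = 0.00266). The other 4 called genes had log2 fold changes from -1.67 (Mcm4) to -1.92 (Mcm2). Mcm4 was higher in tumor cells than in progenitors in MYC spinal 3 (18.5 against 18.1 CPM, the latter from 4 UMIs). Mcm7 (-1.34, edgeR adjusted p = 0.0533) and Tyms (-1.61, edgeR adjusted p = 0.0527) missed the threshold. When the unclear cells of MYC spinal 1 were left out, 2 genes stayed called beside 4.27% of all genes, Mcm3 at -2.03 and Mcm5 at -1.91 on the log2 scale.

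In T cells, Mcm7 rose against myeloid cells, 1 of 10 beside 6.45% of all genes called higher. Mcm7 stood at 44.8, 94.5, 116, 92.0, 29.3 and 85.7 CPM in T cells of MYC spinal 1, 2 and 3 and eRT 1, 2 and 3, and at 32.0, 36.5, 22.3, 32.1, 10.1 and 29.8 CPM in myeloid cells. It was higher in 6 of 6 tumors, although the T cells of eRT 2 stood below some myeloid values. The log2 fold change was 1.05 ± 0.33 (SE; edgeR adjusted p = 0.0294). Mcm2, also a ring subunit, stood just outside the threshold at 1.05 ± 0.37 (edgeR adjusted p = 0.0530). The Mcm7 call was lost without MYC spinal 3, eRT 1 or eRT 3 (each left out alone). It was also lost against macrophages and monocytes alone (0.68 on the log2 scale).

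**Figure D2:**
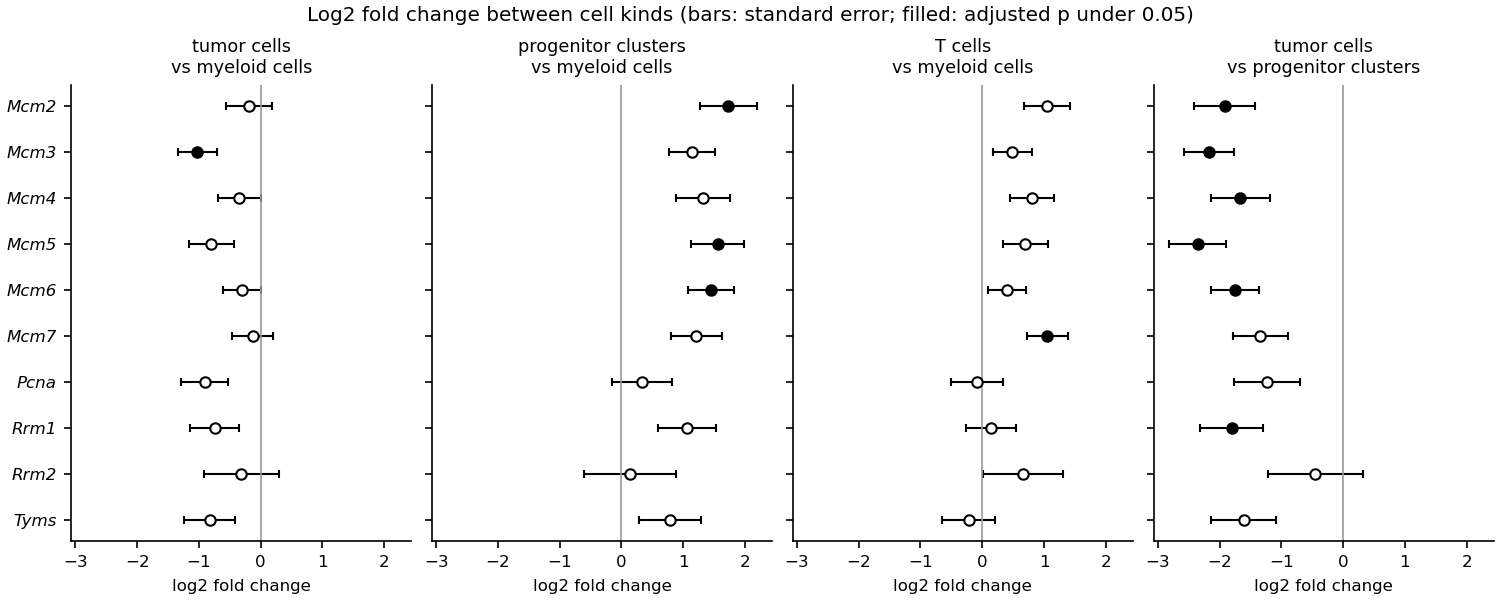
Log2 fold change of each of the 10 genes between kinds of cells (tumor cells, progenitors and T cells against myeloid cells, and tumor cells against progenitors), with bars of 1 SE from edgeR's fit. Filled points passed an adjusted p of 0.05, of which 1, 3, 1 and 6 are seen in the order just given.

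Among the 6 subunits of the ring, UMIs were unequal. Over all cells of a tumor, Mcm6 took 22.2% to 28.5% of the UMIs of Mcm2 to Mcm7 and was the largest in all tumors except eRT 3, where Mcm3 took 27.0%. Mcm4 took 7.55% to 12.7% and Mcm2 took 9.79% to 14.7%, the smallest shares in most tumors. These are shares of UMIs counted at transcript 3′ ends and were not divided by length, so how far capture differs between the genes was not tested. Within tumor cells Mcm6 took 21.4% of 1520 such UMIs in MYC spinal 3 and 31.3% of 403 in eRT 3.

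Rrm2 differed from the other genes in how its UMIs fell among tumor cells. In MYC spinal 3 it had 706 UMIs in 248 of 1534 tumor cells, or 2.85 per positive cell, while the other 9 genes had 1.10 (Pcna) to 1.56 (Tyms). In tumor cells of eRT 3 it had 136 UMIs in 61 cells (2.23 per positive cell) against 1.05 to 1.53 for the other genes. In MYC spinal 1 the values were 2.63 for Rrm2 and 1.25 to 2.29 for the rest. The UMIs of Rrm2 were the most concentrated of the 10 in the tumor cells of these 3 tumors. They were also concentrated in other kinds, with 991 UMIs in 625 positive myeloid cells (1824 in 1218 for Tyms) and 161 in 91 positive T cells. In progenitors they were not, at 182 in 151 cells beside 188 in 145 for Tyms. Rrm2 had the highest mean level of the 10 in tumor cells (51.7 CPM), and the part of its level in this was not tested. Per UMI of its partner subunit Rrm1, Rrm2 held 3.36 and 2.13 UMIs in tumor cells of MYC spinal 3 and eRT 3 (210 and 64 Rrm1 UMIs), above the 0.939 and 0.764 of their myeloid cells. In MYC spinal 1 the order was the other way, 3.33 against 5.94, from 15 and 18 Rrm1 UMIs. The tumor cells of MYC spinal 2, eRT 1 and eRT 2 held 2, 7 and 3 Rrm1 UMIs, too few for a ratio to be read.

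Pcna split the libraries in a way that the kinds of cells did not. Over all cells it reached 81.2, 99.3, 36.8 and 31.0 CPM in MYC spinal 1 and 2 and eRT 1 and 2, but only 7.45 and 6.48 CPM in MYC spinal 3 and eRT 3. Per UMI of Mcm2 to Mcm7 this was 0.297, 0.25, 0.127 and 0.199 against 0.0361 and 0.0383. The 2 low libraries belong to different subtypes and strains. The same split was seen among myeloid cells (0.152 to 0.635 against 0.0425 and 0.0361) and among T cells (0.152 to 0.276 against 0.0362 and 0.020), and the progenitors of MYC spinal 3 (0.0326) stood below those of MYC spinal 2 (0.179). In tumor cells the low values were 0.0375 in MYC spinal 3 and 0.0496 in eRT 3, with eRT 2 near them at 0.0625 from 4 UMIs.

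The annotation lists a processed copy of Pcna, the pseudogene Pcna-ps2 (GRCm38, chr19:9283380-9284160), whose own level was 5.55 to 10.8 CPM in the 6 libraries without that split. Pcna itself lies at chr2:132249162-132253314 on the minus strand. Genes were set apart by whether a copy with their own symbol and the ending -ps was among the genes counted. Copies under other names were not searched. Of 18 such genes, Pcna among them, 7 (38.9%, Pcna included) stood lower in both MYC spinal 3 and eRT 3 than in each other library. Of 5158 other genes, 6.63% did so, and the median log2 differences between these libraries and the others were -0.25 and 0.04. For Pcna it was -2.82. At least as large a fall was seen in 2 of the 18 genes, Pcna counted, and in 38 of the others. The 2 libraries had been picked for their low Pcna, so the place of Pcna among the 7 was fixed by that choice. These shares were given no test. How reads shared between Pcna and a copy were counted is not given in the sources used here, and its part in the split was not tested. The comparisons of kinds above were made within tumors, but whether the split bears equally on both kinds was not tested. Tumor (and myeloid) cells held Pcna at 6.86 (6.22) CPM in MYC spinal 3 and 6.60 (6.56) CPM in eRT 3. In MYC spinal 1 and 2 and eRT 1 and 2, the levels were 78.5 (131), 0 (84.6), 29.9 (30.2) and 6.38 (25.6) CPM.

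**Figure D3:**
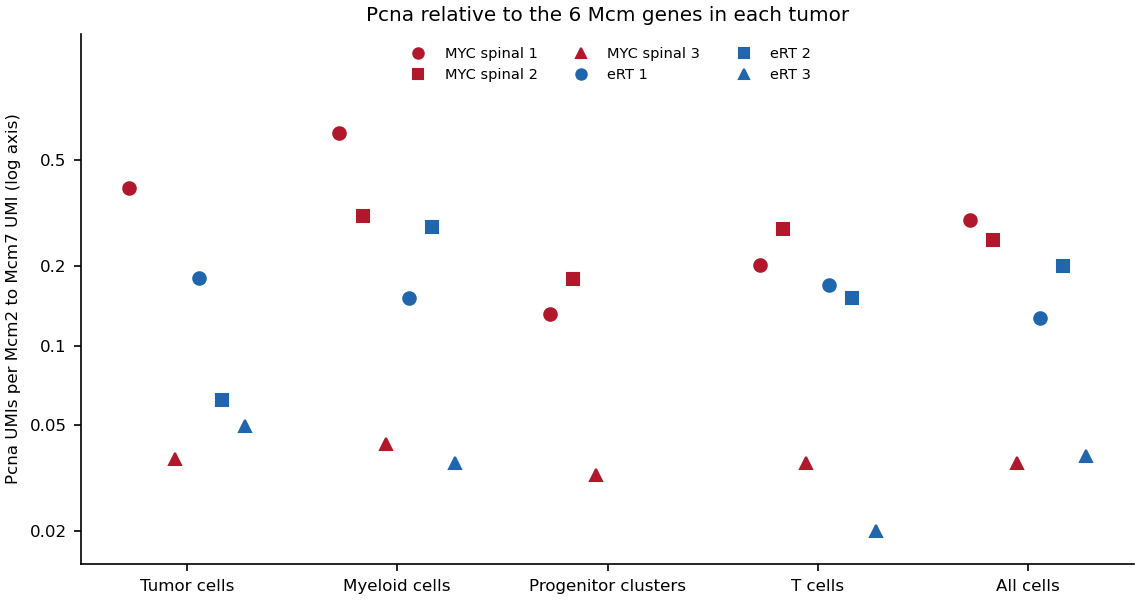
Pcna UMIs per UMI of Mcm2 to Mcm7 (log axis as labelled) in each kind of cells, 1 point per tumor. The tumor cells of MYC spinal 2, with 0 Pcna UMIs, are not drawn. MYC spinal 3 and eRT 3 stand lowest among myeloid cells and T cells, and in all cells at 0.0361 and 0.0383.

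Cells with at least 1 UMI of the 10 genes were counted after thinning each cell to 1000 UMIs, so that depth did not set the share. In tumor cells they made 27.4%, 7.69%, 21.5%, 16.2%, 13.7% and 16.7% in MYC spinal 1, 2 and 3 and eRT 1, 2 and 3. In myeloid cells they made 17.1%, 41.0%, 19.5%, 22.6%, 7.72% and 16.8%. The 95% exact binomial intervals, which cover counting error only, overlapped between tumor and myeloid cells in 5 of 6 tumors, as in MYC spinal 3 (19.4% to 23.6% against 18.2% to 20.9%). They were apart in MYC spinal 2 (0.195% to 36% against 38.5% to 43.7%). Macrophages and monocytes alone held 29.3% in MYC spinal 3 (27.2% to 31.5%) and 30.3% in eRT 1 (27.2% to 33.5%), above the intervals of the tumor cells there, while osteoclast-like cells of MYC spinal 3 held 7.62%. The highest of the myeloid shares, in MYC spinal 2, came from 1406 cells, since 1976 shallower ones were left out. Before thinning, the shares were 29.1% to 76.0% in tumor cells and 13.6% to 53.1% in myeloid cells.

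Progenitor sums held shares of 55.6% of 27 cells in MYC spinal 1, 58.8% of 834 in MYC spinal 2 and 46.3% of 54 in MYC spinal 3, the highest of the 4 kinds in the first 2 of these tumors. T cells ranged from 21.9% in eRT 2 to 62.5% in MYC spinal 3, where the interval was 52.0% to 72.2% of 96 cells. Late neutrophils, taken as cells that should lack these RNAs, held 12% of 309 cells in MYC spinal 2, 14.6% of 82 in MYC spinal 3 and 4.42% of 226 in eRT 2. Tumor cells of eRT 2 (interval 9.04% to 19.5%) stood above its late neutrophils (2.14% to 7.99%). In MYC spinal 3 the interval of the late neutrophils, 7.80% to 24.2%, held the tumor cells' share. Median UMIs per cell before thinning were 2062 and 4696 in the tumor cells of eRT 2 and MYC spinal 3 and 1125 and 1914 in the late neutrophils. None of the 19 late neutrophils of eRT 1 and none of the 10 of eRT 3 was positive, with exact intervals up to 17.7% and 30.9%. The tumor cells of MYC spinal 2 deep enough to thin gave 1 positive cell of 13, a share not above that of its late neutrophils.

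**Figure D4:**
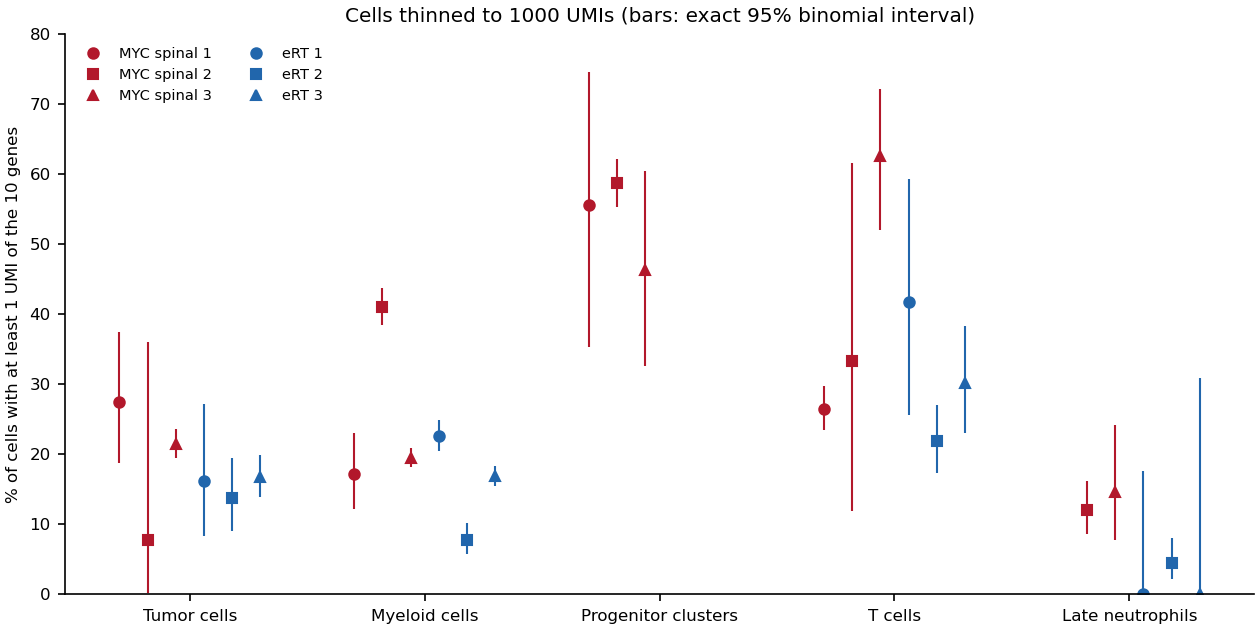
Percentage of cells with at least 1 UMI of the 10 genes after thinning to 1000 UMIs per cell, in the 4 kinds and in late neutrophils, with 95% exact binomial intervals. Points are tumors, and progenitors (46.3% to 58.8%) stand above late neutrophils (0% to 14.6%).

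Dividing cells were separated by other genes to see how the 10 genes vary within a kind. Cells with at least 2 UMIs of 24 mitotic genes (Mki67, Top2a and others, none of the 10) were compared with cells with none. In myeloid cells all 10 genes were higher in the mitotic cells, in 6 of 6 tumors each, beside 5.69% of all genes called higher. Rrm2 stood at 663, 108, 67.4, 80.7, 249 and 90.8 CPM in mitotic myeloid cells of MYC spinal 1, 2 and 3 and eRT 1, 2 and 3, and at 3.97, 26.3, 6.58, 1.77, 1.79 and 1.25 CPM in the others. No value of 1 group reached those of the other, though how many of all genes were parted in this way was not counted. The log2 fold change of Rrm2 was 4.12 ± 0.47 (SE; edgeR adjusted p = 4.82e-05).

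Next in size were Tyms at 3.24 ± 0.22 and Rrm1 at 2.54 ± 0.18 on the log2 scale (edgeR adjusted p = 4.33e-07 and 5.90e-07). The helicase subunits ranged from 0.99 (Mcm4) to 1.79 (Mcm5), and Pcna stood at 1.28. Myeloid cells are mixed, so the split can also part types of myeloid cells, and how far it did was not tested. Within macrophages and monocytes alone, a fit added after the data were seen, Rrm2 stood at 4.35 on the log2 scale. Mcm2 (0.80) and Mcm4 (0.79) were then close to the threshold (edgeR adjusted p = 0.0404 and 0.0477). Taken tumor by tumor, the log2 ratio of mitotic to other myeloid cells was larger for Rrm2 than for each of the 6 Mcm genes in 6 of 6 tumors, for Tyms in 5, for Rrm1 in 4 and for Pcna in 0. This order was noticed in the data and given no test. Mitotic cells hold more UMIs per cell, and after thinning to 1000 UMIs 6 genes remained called, beside 3.61% of all genes. Mcm2 (0.40), Mcm3 (0.52), Mcm4 (0.08) and Mcm6 (0.74) then missed the threshold, and Rrm2 stood at 2.99, Tyms at 2.56 and Rrm1 at 1.98 on the log2 scale.

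In tumor cells the same split gave 7 higher genes of the 8 tested, beside 3.12% of all genes called higher, and Mcm2 and Mcm4 were too low to be tested. It rests on 5 tumors, since MYC spinal 2 had 5 mitotic tumor cells. Rrm2 again led, at 164, 128, 66.5, 13.2 and 132 CPM in mitotic tumor cells of MYC spinal 1 and 3 and eRT 1, 2 and 3 against 34.6, 20.7, 0, 7.82 and 10.3 CPM in the others. It was higher in 5 of 5 tumors, although the mitotic value of eRT 2 lay below some of the others, and the log2 fold change was 2.89 ± 0.26 (SE; edgeR adjusted p = 3.44e-07). Mcm3 followed at 2.24 ± 0.28 and Mcm5 at 1.92 ± 0.33 (edgeR adjusted p = 1.99e-05 and 0.000986). Mcm3 stood at 65.5, 51.9, 36.9, 19.8 and 66.6 CPM in mitotic tumor cells and at 20.8, 15.6, 0, 2.61 and 7.72 CPM in the others. The levels of 0, both in eRT 1, allow up to 29.4 CPM at 3 counts.

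Rrm1 (1.74), Tyms (1.73), Mcm7 (1.40) and Mcm6 (1.0) were also higher, and Pcna was not called at 0.59 ± 0.41. Thus Mcm3 and Mcm5 stood above Rrm1 and Tyms in tumor cells and below them in myeloid cells, an order set side by side here with no test of the difference. After thinning, Mcm3 (2.48), Rrm2 (3.08) and Tyms (2.08) remained called, beside 2.81% of all genes, and were the 3 that could be tested. Without the tumor as a block, no gene passed in tumor cells.

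**Figure D5:**
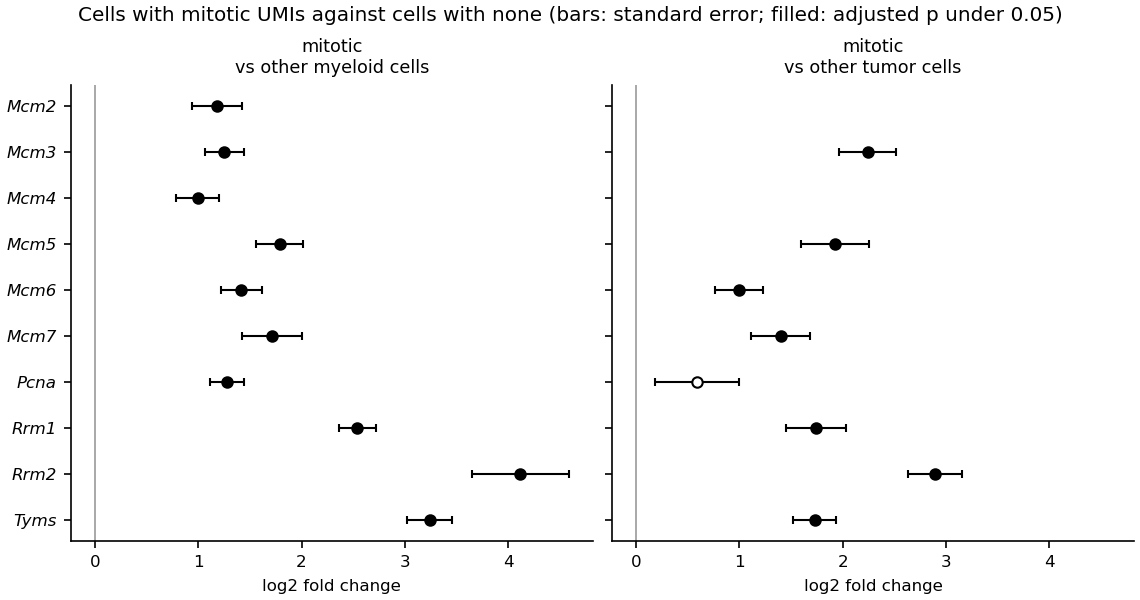
Log2 fold change of each of the 10 genes between cells with at least 2 UMIs of 24 mitotic genes and cells with none, in myeloid cells and in tumor cells, with bars of 1 SE from edgeR's fit. Rrm2 stands highest in both, at 4.12 and 2.89.

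Between eRT and MYC spinal tumors, no gene passed edgeR's test in tumor cells (0 of 9 tested, background 0.0%), myeloid cells (0 of 10, background 0.0%) or T cells (0 of 8, background 0.0%). At an unadjusted p under 0.05, edgeR called 185 of 5727, 147 of 10204 and 31 of 2788 genes in these comparisons, of which only Rrm2 in myeloid cells was among the 10. DESeq2, at an adjusted p under 0.05, called 21, 6 and 0 genes, none of them among the 10. In tumor cells, Rrm1 was at 27.4, 42.6 and 25.3 CPM for MYC spinal 1, 2 and 3 and 15.0, 4.78 and 21.1 CPM for eRT 1, 2 and 3, without overlap. The groups of the other genes overlapped in tumor cells, and those of all 10, Rrm1 included, overlapped in myeloid cells and in T cells. How many of all genes had groups without overlap was not counted, so this is not read as a result about Rrm1. In tumor cells its log2 fold change was -0.66 ± 0.52, and 2 of its values there come from 2 and 3 UMIs.

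In myeloid cells Rrm2 stood at 149, 70.0 and 22.7 CPM in MYC spinal tumors and at 25.8, 17.8 and 18.8 CPM in eRT. The value of eRT 1 lay above that of MYC spinal 3, so the groups overlapped, and the log2 fold change was -1.84 ± 0.63 (unadjusted p = 0.0208 and adjusted p = 1 in edgeR's test). The other 9 genes had log2 fold changes from -0.07 (Mcm2) to -1.78 (Pcna) in myeloid cells, and Pcna carries the split of libraries described above. Whether the difference between tumor and myeloid cells was itself different in eRT and MYC spinal tumors was tested as an interaction. No gene of the 10 passed it (background 0.0%), with values from -0.54 (Mcm3) to 0.40 (Pcna). At an unadjusted p under 0.05 edgeR called 342 of 11392 genes in the interaction and none of the 10, and DESeq2 called 2 genes at an adjusted p under 0.05 and none of the 10.

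Other genes of DNA replication, 70 in lists of licensing, fork, polymerase, clamp loading, nucleotide supply, histone and E2F genes, were counted in the same fits. Between tumor and myeloid cells, 1 of the 65 tested rose and 10 fell, beside 16.1% and 19.5% of all genes, so neither share is above the background. The 1 that rose was Ccne1 (cyclin E1, which activates Cdk2 at S phase entry), at 1.51 on the log2 scale, and the largest falls were those of Dna2 (-3.22), a nuclease of lagging strand processing, Dck (-2.29), deoxycytidine kinase, and Asf1b (-1.88), a histone chaperone. Their median was -0.34.

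In progenitors against myeloid cells, 4 of 65 rose and 2 fell, beside 1.04% and 3.34% of all genes. Those named are Shmt1 (2.23), Dut (1.69), which removes dUTP, and Rpa2 (1.52), of the single-strand binding complex, while Samhd1 (-2.07), which degrades deoxynucleotides, and Pold4 (-1.31), a small polymerase delta subunit, fell. Without the unclear cells of MYC spinal 1, 0 of 62 were called, beside 0.126% of all genes called higher and 0.569% lower, and the 5 named stood at 1.81, 1.5, 1.47, -2.21 and -1.12. In T cells, Rpa2 (1.20) and Rpa1 (1.13) rose and Dna2 (-4.11) and Pold4 (-0.96) fell, 2 of 65 each way beside 6.45% and 15.0% of all genes. Of tumor cells against progenitors, 15 of 65 fell and 0 rose, beside 6.42% of all genes called lower, with Dna2 (-2.88), Timeless (-2.35) and Fen1 (-2.25), the flap endonuclease, the largest. Without the unclear cells, 6 of 62 fell, beside 4.27% of all genes, with Dna2 (-3.26) and Fen1 (-2.09) among them and Timeless (-1.67) no longer called.

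In mitotic myeloid cells, 48 of the 68 tested rose and 2 fell, beside 5.69% and 4.22% of all genes. E2f7 (3.60), Asf1b (3.55) and Tk1 (3.44), thymidine kinase, led, and Samhd1 (-0.79) and Pold4 (-0.66) were the 2 that fell. By list, 12 of 13 fork genes and 11 of 12 clamp loading and lagging strand genes rose, while 3 of 9 licensing genes did. In mitotic tumor cells 22 of 33 rose, beside 3.12% of all genes, led by Tk1 (3.31), Asf1b (3.16) and Rfc5 (2.67), a clamp loader subunit. No gene of these lists was called between subtypes or in the interaction.

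Over 20 sums of a kind in a tumor with at least 50000 UMIs, the genes closest in pattern to the mean of the 10 were Smc4, Dtl, Haus4, Mis18a and Ezh2 outside the replication lists (Pearson's r of 0.89 to 0.90 over 5283 genes compared). Within the lists they were Tipin (0.93), Dut (0.91), Rpa2 (0.90), Lig1 (0.90) and Slbp (0.88). Of the 10 themselves, Mcm5 (0.97) and Mcm6 (0.95) stood closest to the mean, and Rrm2 (0.70) and Pcna (0.56) farthest. The sums share tumors and depth, the 10 genes are part of the mean, and the values are descriptions without a test.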

How the data were processed

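The authors made 10x Genomics 3′ v2 libraries, aligned reads to mm10 with Cell Ranger 2.0.2 and deposited unnormalized UMI counts per gene and cell, 1 table per tumor. Cells under 200 genes or above 25% mitochondrial UMIs were left out. Tumors of a subtype were integrated and clustered with Seurat 5.3.0 (30 dimensions, 20 neighbors, resolution 0.8). A cluster without an immune name and with Smarcb1 under 0.25 of its expected UMIs, at least 10, was called tumor; sparing immune-named clusters was decided after 1 of late neutrophils met the limit. Scrublet had not worked (18 cells marked, 0.0812%), so no doublets were taken out. Counts were summed per kind and tumor (at least 10 cells) and tested with edgeR 4.0.16 (TMM, filterByExpr, quasi-likelihood, adjusted p under 0.05). Kinds of 1 tumor come from the same animal, which was the block. CPM are counts per 1000000 UMIs of a sum. Intervals are exact, at 95%, and cover counting error only. Between subtypes, p-values measure the spread between these tumors. With the tumor as a block, they measure the spread left after differences between tumors are taken out. In comparisons of kinds, all 4 kinds entered 1 fit and shared 1 estimate of that spread. The tests were tried on simulated counts with the same spread for every gene and no differences between tumors but depth. This setting is simpler than these data, so it does not show how the tests perform here. The genes and lists were chosen with earlier results of these data known. All 10 genes are named, with up to 3 other replication genes per comparison and direction by largest change, and the closest in pattern. Alternatives tried were plain library sizes, DESeq2 1.42.0, other filters, resolutions and Smarcb1 limits, each tumor left out, no block, thinning, and other mitotic splits.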

Additional observations from a re-analysis of the deposited data

How the results depend on the processing

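Of 1946 log2 fold changes of the 10 genes recomputed under other settings, 0 of the called ones changed sign, 92 lost their call, 45 gained one and 1809 kept their side of the threshold. In tumor against myeloid cells (1 gene called), 0 were called without TMM factors, 3 with the stricter cell filter and 3 without the highest Scrublet scores, 5 against macrophages and monocytes only, and 0 to 1 with a tumor left out. Without TMM factors the median of all genes moved from -0.03 to 0.26 on the log2 scale. In progenitors against myeloid cells (3 called), 6 were called without TMM factors and 5 with only the 2 kinds in the fit. There, 0 were called with every gene tested, at resolution 1.6, without the highest Scrublet scores, against macrophages and monocytes only or without the unclear cells of MYC spinal 1. The count was 1 with the stricter cell filter, with cell cycle genes kept for clustering and with the Smarcb1 rule over immune names, and 0 to 2 with a tumor left out. In T cells against myeloid cells (1 called), 4 were called without TMM factors, and 2 by DESeq2, at resolution 1.6, without the unclear cells of MYC spinal 1 or without the tumor cells of MYC spinal 2. There, 0 were called with every gene tested, with the stricter cell filter, with cell cycle genes kept or against macrophages and monocytes only, and 0 to 3 with a tumor left out. In tumor cells against progenitors (6 called), 2 were called without the unclear cells of MYC spinal 1, and 2 to 8 with a tumor left out. In the mitotic split, 6 of 10 genes stayed called in thinned myeloid cells. In tumor cells (7 called), DESeq2 called 4, thinning left 3, and 3 to 7 were called with a tumor left out. Without the replicate block, that is the tumor as a term, the counts were 1, 3, 1 and 8 for the comparisons of kinds in the order above, 7 in mitotic myeloid cells, and 0 in mitotic tumor cells, where all genes called fell from 271 to 13. For the interaction the count stayed at 0 without it. Over all genes, counts ran from 15 (without MYC spinal 2) to 744 (only the 2 kinds in the fit) against 416 in progenitors against myeloid cells, where DESeq2 called 724. They fell from 1224 to as few as 576 in tumor cells against progenitors and from 2036 to 1298, without the block, in T cells, and ran from 163 to 1542 against 961 in mitotic myeloid cells and from 13 to 435 against 271 in mitotic tumor cells. Without TMM factors, calls against myeloid cells were 2340 higher and 1430 lower in tumor cells (1530 and 1852 with them), 318 and 213 in progenitors (99 and 317) and 1309 and 981 in T cells (613 and 1423). Counts were within 1.5 times in 164 of 207 recomputed comparisons, and where they were not, the cause was not tested. Shares of cells moved at 500 UMIs in 16 of 21 sums, without thinning in 17 and with at least 2 UMIs in 21. The settings that keep macrophages and monocytes only, leave out the cells of MYC spinal 1 or MYC spinal 2, or apply the Smarcb1 rule to immune names were added after the data had been seen.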

Other observations

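Outside the 4 kinds, 4768 cells held the remaining UMIs of the 10 genes, and several clusters came mostly from 1 tumor. A cluster of 277 B-lineage cells led by Vpreb3 and Igll1, which mark pre-B cells, had 267 of its cells in MYC spinal 2, where it held 1804 CPM of the 10 genes, beside 1060 and 826 CPM of the progenitor clusters in that tumor. Mature B cells led by Ms4a1 and Mzb1 (235 of 267 in MYC spinal 2) held 254 CPM there. Of 1111 cells led by Lpl and Fabp5, 1107 came from MYC spinal 3 and held 671 CPM. An unnamed cluster led by Akr1b8, Arg1, Ccnb1 and Cdk1 held 962 CPM in eRT 1 (421 of 529 cells) and 1060 CPM in eRT 2 (82 cells). NK cells of the MYC spinal tumors (1, 2 and 3) held 351, 740 and 930 CPM, and those of eRT 1 and 2 held 645 and 1054 CPM. These clusters entered no comparison and were given no test.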
